A study of Mus musculus with 28 samples.

Results

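The 10 genes described here encode soluble glutathione transferases of the alpha class (Gsta1, Gsta2, Gsta3 and Gsta4), the mu class (Gstm1, Gstm2, Gstm3 and Gstm4), the pi class (Gstp1) and the theta class (Gstt1). They were listed by symbol, through Ensembl identifiers, from the 54446 genes counted in each library. Gsta2 was chosen by its measured NMN-against-water differences, which had already been seen in several of these comparisons, so its values are given as a description without a test, and the tests concern the other 9 genes.

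RNA was sequenced from liver and kidney of male C57BL/6 mice aged 8 weeks (the paper names the strain C57BL6J). They were gavaged for 7 days with nicotinamide mononucleotide (NMN), a precursor of NAD+, or with water. Mice of the lower schedule received 1340 mg/kg/d in a single daily gavage (4 NMN and 4 water libraries per organ), and mice of the higher schedule 2680 mg/kg/d in a pair of daily gavages (3 and 3 libraries per organ). Water mice were gavaged on the same schedule as their NMN mice, and NMN was compared with water only within an organ and schedule. The 28 libraries held 12688324 to 33872983 counted reads. The schedules differed in dose, in the number of gavages and in their libraries, and these cannot be told apart. The reads came from whole organs, so more RNA per cell and more cells of a type cannot be told apart either.

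Glutathione transferases join glutathione to electrophilic compounds, among them drug metabolites and products of lipid peroxidation, which are then exported or degraded to mercapturic acids. The alpha, mu and pi enzymes are abundant in liver and in the proximal tubule of the kidney. Their genes are textbook targets of the transcription factor NRF2, which binds antioxidant response elements, and of the nuclear receptors CAR and PXR and the aryl hydrocarbon receptor AHR, which binds xenobiotic response elements.

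Close copies limit what the counts of some of these genes mean. The coding sequences of Gsta1 and Gsta2 differed at 13 of 666 aligned bases, an identity of 98.0%. Gsta2 was 98.5% identical to the predicted gene Gm10639, Gsta1 was 99.7% identical to the predicted gene Gm3776, and Gstp1 was 98.1% identical to Gstp2. The stretch of coding bases 373 to 492 holds 5 of the 13 differences and is shown because a read within the lower-case run between the first capital and the others cannot tell the genes apart. It was read from the GENCODE transcripts, and capitals mark the bases that differ.
Gsta1: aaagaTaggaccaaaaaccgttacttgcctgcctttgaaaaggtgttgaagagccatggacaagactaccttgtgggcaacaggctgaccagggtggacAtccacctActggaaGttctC
Gsta2: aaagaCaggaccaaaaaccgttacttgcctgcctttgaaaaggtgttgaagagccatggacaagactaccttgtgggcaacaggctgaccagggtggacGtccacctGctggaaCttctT

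Of all 100-base windows of the annotated transcripts of a gene, 71.6% were found in no other gene for Gsta2, 19.4% for Gsta1 and 74.9% for Gstp1. The share was 94.1% for Gstm1, 99.6% for Gstm2 and 86.2% for Gstm3, and 100% for Gsta3, Gsta4, Gstm4 and Gstt1. With windows of 50 bases it was 50.2% for Gsta2, 9.50% for Gsta1 and 66.3% for Gstp1, and with windows of 150 bases 80.4%, 31.6% and 82.4%. Reads that fit several places were not counted by the authors, and the read length is not given in the sources used here. With windows of 50 bases the share was 71.2% for Gstm3 and 81.1% for Gstm1. Counts of Gsta1, Gsta2 and Gstp1 are therefore uncertain, and if the reads were short so are those of Gstm3 and Gstm1.

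The 250 bases before the start of Gsta2, Gstm1 and Gstm2 are shown because Gsta2 and Gstm1 had higher values and Gstm2 lower values under NMN in the liver. They are RefSeq sequences on GRCm38.p6, read 5′ to 3′ towards the gene, at chr9:78347146-78347395, minus strand, for Gsta2, chr3:108017974-108018223, minus strand, for Gstm1 and chr3:107986421-107986670, minus strand, for Gstm2. Capitals mark matches to GCGTG, the core letters of the xenobiotic response element.
Gsta2: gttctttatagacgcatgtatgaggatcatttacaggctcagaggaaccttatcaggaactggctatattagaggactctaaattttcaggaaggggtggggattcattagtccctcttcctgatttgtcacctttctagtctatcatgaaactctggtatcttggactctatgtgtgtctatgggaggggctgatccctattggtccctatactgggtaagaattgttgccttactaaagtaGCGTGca
Gstm1: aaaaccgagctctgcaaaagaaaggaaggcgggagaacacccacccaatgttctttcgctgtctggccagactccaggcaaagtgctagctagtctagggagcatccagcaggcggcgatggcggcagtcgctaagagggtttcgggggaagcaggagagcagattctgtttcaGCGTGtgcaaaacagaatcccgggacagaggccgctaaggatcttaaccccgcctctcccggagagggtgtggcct
Gstm2: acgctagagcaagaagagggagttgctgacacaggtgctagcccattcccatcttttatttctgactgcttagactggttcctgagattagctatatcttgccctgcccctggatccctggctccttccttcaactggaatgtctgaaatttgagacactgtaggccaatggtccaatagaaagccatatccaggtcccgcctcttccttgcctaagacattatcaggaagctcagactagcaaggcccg

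Windows from 250 bases before to 50 after the start were searched on both strands in 9 of the 10 genes. GCGTG was found in Gsta1, Gsta2, Gstm1 and Gstp1 (4 of 9 genes, or 5 of 11 windows) and in 32.4% of all 32851 such windows. TGACNNNGC, the core letters of the antioxidant response element, was found only in Gsta3 (1 of 9 genes, or 1 of 11 windows) and in 12.4% of all windows. None of the 9 genes held both motifs. A match is a description of the letters and not a site of binding. Only these windows and letters were searched, so a missing match does not show that a gene lacks such an element.

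Water-gavaged mice gave the baseline of each gene in each organ. Levels of different genes are compared here per length of exon, as RPKM (counted reads scaled to exon length and to library size, computed from the counts). At 1340 mg/kg/d the highest mean levels in water livers were those of Gstp1 (1056 RPKM) and Gstm1 (961 RPKM), followed by Gsta3 (347 RPKM) and Gstt1 (126 RPKM). The ranges of Gstp1 and Gstm1 overlapped, since Gstp1 ran from 437 to 1575 RPKM among 4 water livers. Gstm3, Gstm2, Gsta4, Gstm4 and Gsta2 lay between 46.5 and 18.0 RPKM, and Gsta1 was close to absent at 0.223 RPKM. At 2680 mg/kg/d Gstm1 was the most abundant in water livers (1294 RPKM), above Gsta3 (497 RPKM) and Gstp1 (347 RPKM), whose mean was lower than in the other schedule.

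The kidney had a different order. Gstm1 was again high (371 and 424 RPKM in water mice of the lower and the higher schedule), and Gsta2 came next with 159 and 237 RPKM. Gstt1 had 73.2 and 80.1 RPKM. Gsta3, among the 3 most abundant of these genes in liver, had 21.2 and 28.4 RPKM in kidney. Gstm3 had at most 4 counts in any water kidney, against at least 541 in any water liver, so it is given without a fold. The order of Gstm1, Gsta2 and Gstt1 in kidney, without overlap between neighbours, was the same in both schedules. Levels per length of the longest transcript put Gstp1 (107 RPKM) beside Gstt1 (101 RPKM) in water kidneys of the lower schedule, with overlapping ranges.

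**Figure D1:**
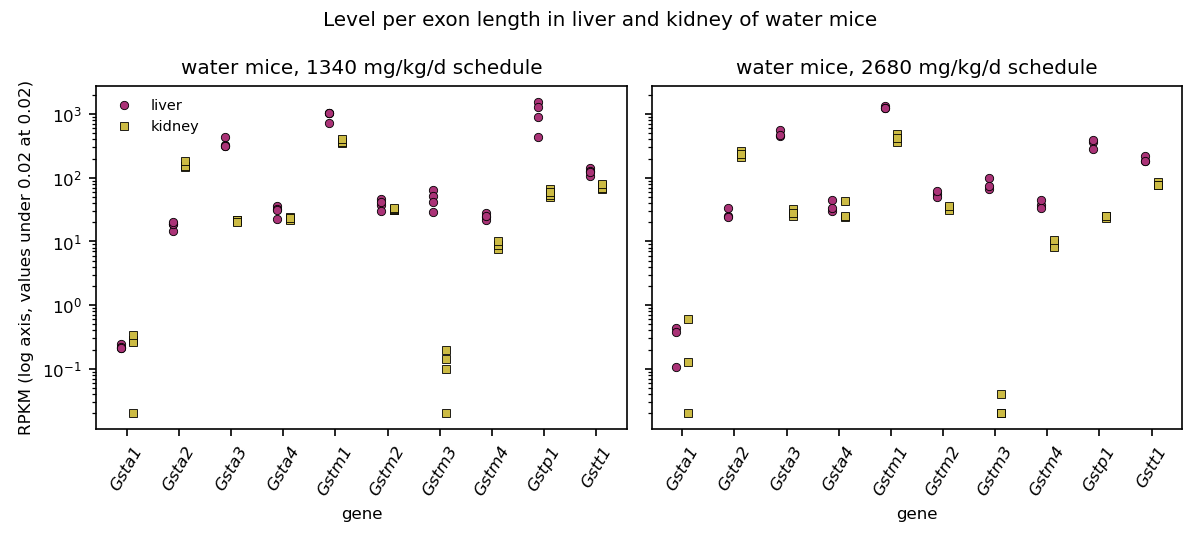
Level of the 10 genes per exon length in water mice (RPKM on a log axis), each point a library, circles for liver and squares for kidney, at 1340 mg/kg/d (left, 4 libraries for each organ) and at 2680 mg/kg/d (right, 3 for each). Gsta2 lies higher in kidney than in liver, Gstm3 is near 0 in kidney, and Gsta1 is near 0 in both organs; values under 0.02 are drawn at 0.02.

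Between the organs of water mice, Gsta2 was the gene with the lower level in liver. Its liver-against-kidney log2 difference was -2.20 (SE 0.13) in the lower schedule and -2.24 (SE 0.15) in the higher one. Of the other genes, Gsta3, Gsta4, Gstm1, Gstm2, Gstm4, Gstp1 and Gstt1 had higher levels in liver in both schedules, and these 7 passed edgeR's quasi-likelihood test at an adjusted p under 0.05. Gstm3 passed the count filter only through liver, so its difference was built in and is not counted. Among all genes, 66.9% and 70.5% passed that test, 30.9% and 31% in the direction of liver, so a call in this comparison was common. Gsta3, an alpha-class enzyme, was higher in liver by 4.98 on the log2 scale in both schedules (SE 0.15 and 0.16, adjusted p = 4.95e-12 and 3.55e-10, edgeR). Gstp1, the pi-class enzyme, was higher by 5.16 (SE 0.38, adjusted p = 4.66e-07) and 4.68 (SE 0.15, adjusted p = 3.57e-10). The smallest differences were those of Gstm2 (1.23, SE 0.13, in the lower schedule) and Gsta4 (1.08, SE 0.23, in the higher). Gsta1 was not tested, since it was under the count filter.

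The organ labels were checked on marker genes. Albumin (Alb) averaged 75882 and 120600 CPM (counts scaled to library size) in water livers and 88.6 and 10.5 CPM in water kidneys of the lower and higher schedule. Kap, a gene of the proximal tubule, averaged 22600 and 21163 CPM in water kidneys and 26.6 and 2.59 CPM in water livers. Each organ thus carried its own markers in every library.

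Gsta2 had higher values in NMN mice than in water mice in both organs and both schedules. At 1340 mg/kg/d the water livers had 21.8, 17.0, 22.2 and 23.6 CPM (scaled within the organ and schedule) and the NMN livers 33.9, 57.2, 33.8 and 26.0 CPM. At 2680 mg/kg/d the water livers had 29.2, 28.8 and 39.9 CPM and the NMN livers 119.6, 115.8 and 150.9 CPM. No NMN liver overlapped a water liver of its schedule, and the gap was widest in the higher schedule. Of all genes, 1.78% in the lower and 13.8% in the higher schedule had higher values without overlap. Gsta2 was chosen by these differences, so its separation is only a description. The log2 fold change was 0.83 (SE 0.22) in the lower schedule and 1.98 (SE 0.18) in the higher.

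Gsta2 in kidney at 1340 mg/kg/d had 177.4, 175.6, 183.1 and 212.5 CPM in water libraries and 281.7, 299.1, 351.7 and 230.2 CPM in NMN libraries. At 2680 mg/kg/d it had 312.0, 248.9 and 274.5 CPM in water libraries and 478.4, 471.4 and 608.4 CPM in NMN libraries. Again the groups did not overlap, where 2.29% of all genes in the lower and 8.47% in the higher schedule had higher values without overlap. The log2 fold change was 0.64 (SE 0.12) in the lower schedule and 0.90 (SE 0.12) in the higher. The liver response in the higher schedule exceeded that in the lower by 1.15 on the log2 scale (SE 0.31) and that of the kidney in the higher schedule by 1.07 (SE 0.22). For the kidney the difference between schedules was 0.26 (SE 0.18), or 0.13 without NMN replicate 3 of the higher schedule, and in the lower schedule the difference of the liver from the kidney response was 0.19 (SE 0.27), or -0.0906 without liver NMN replicate 2.

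Set side by side, the mean of Gsta2 was lowest in water livers of the lower schedule (21.2 CPM) and was followed by water livers of the higher schedule (32.6 CPM), NMN livers of the lower schedule (37.7 CPM) and NMN livers of the higher schedule (129 CPM). The 4 kidney groups came last, at 187 CPM (water, lower schedule), 278 CPM (water, higher), 291 CPM (NMN, lower) and 519 CPM (NMN, higher). Water livers of the higher schedule and NMN livers of the lower schedule overlapped in range. So did water kidneys of the higher schedule (278 CPM) and NMN kidneys of the lower schedule (291 CPM). The other neighbours did not overlap. Since each organ and schedule was scaled on its own, levels across them are set side by side and not tested.

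The near copy Gm10639 was counted at 0 or 1 read in every liver library, where Gsta2 had 255 or more. In kidney Gm10639 had means of 5.13 and 6.40 CPM in water mice and 8.03 and 11.3 CPM in NMN mice of the lower and higher schedule. Its log2 fold changes were 0.65 (SE 0.24, adjusted p = 0.412, edgeR) and 0.81 (SE 0.30, adjusted p = 0.364). How reads were divided between Gsta2 and Gm10639 was not tested.

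**Figure D2:**
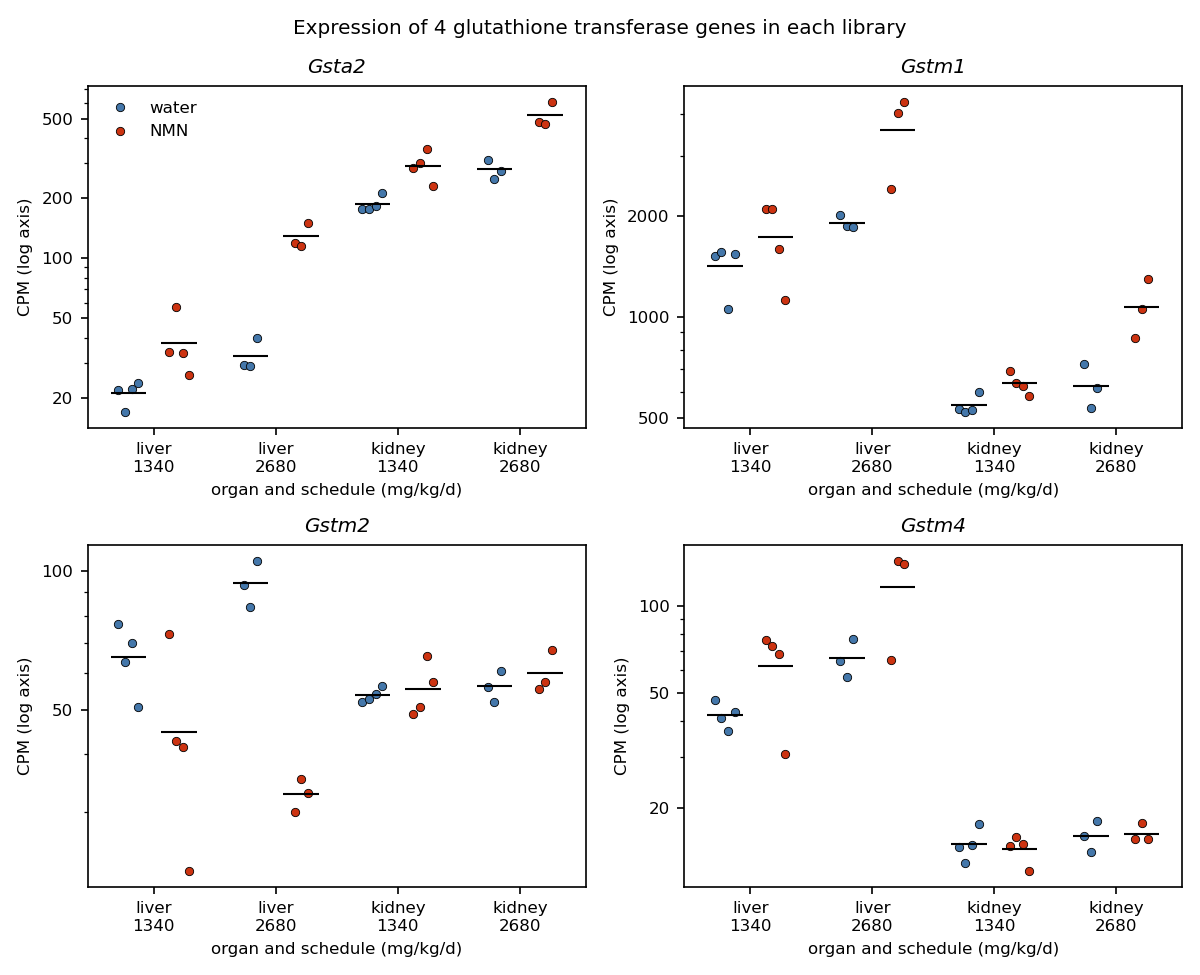
CPM (log axis) of Gsta2, Gstm1, Gstm2 and Gstm4 in every library, by organ and schedule; blue points are water and red points NMN libraries, and the black line is the group mean. Gsta2 is higher under NMN in all 4 comparisons, Gstm1 at 2680 mg/kg/d in both organs, and Gstm2 is lower under NMN in liver at 2680 mg/kg/d.

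At 2680 mg/kg/d, 2 of 8 other genes passed the test of NMN against water in liver, Gstm2 with lower and Gstm1 with higher values. Gsta1 passed the count filter only through the NMN livers and is left out of these counts. Among all 12477 genes tested, 7.08% passed (3.05% higher and 4.03% lower). Groups that did not overlap were found for 1 of the 8 genes as higher and 1 as lower, where 13.8% and 16% of all genes had them. DESeq2 called 3, with Gstm4 in addition, and 11.3% of all genes that it gave an adjusted p. Of the 8 genes, Gstm1, Gstm2, Gstm3 and Gstm4 had an unadjusted p under 0.05 (edgeR), beside 24.6% of all genes. Without any 1 of the 3 water libraries, or without NMN replicate 3, Gstm2 alone passed. Reads in no gene made up 5.06%, 3.90% and 4.21% of listed reads in these NMN livers and 3.62%, 3.27% and 3.47% in the water livers. In kidney of that schedule the share was lower under NMN (6.45% to 6.62%, against 6.85% to 7.36%). The part of these differences was not tested.

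Gstm2, a mu-class enzyme, fell in liver. The water libraries had 93.5, 83.7 and 105.5 CPM and the NMN libraries 30.0, 35.4 and 33.1 CPM. All NMN livers lay far under all water livers. The log2 fold change was -1.52 (SE 0.15, adjusted p = 0.000645, edgeR), and it stayed past the threshold with each library left out in turn (adjusted p at most 0.00625).

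Gstm1, the most abundant mu-class gene, rose. The water libraries had 2008, 1866 and 1843 CPM and the NMN libraries 2390, 4017 and 4359 CPM. The groups did not overlap, but 1 NMN library was much nearer to the water group than the other 2. The log2 fold change was 0.91 (SE 0.20, adjusted p = 0.0235, edgeR). Without water replicate 1, 2 or 3 or without NMN replicate 3 the adjusted p was 0.0712, 0.103, 0.0799 and 0.0903.

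Gsta1 had 2, 8 and 6 counts in the water libraries and 40, 25 and 30 in the NMN libraries. It passed the count filter only because of the NMN group, so a difference was built in, and its log2 fold change of 2.43 (SE 0.62, adjusted p = 0.0399, edgeR) is no support for a change. Its adjusted p was 0.0662 with the replicate number as a block. Leaving out each library in turn moved its adjusted p between 0.0450 and 0.134, and 80.6% of its 100-base windows are shared with other genes.

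Gstm3 and Gstm4, in the mu cluster with Gstm1 and Gstm2, had higher means under NMN without passing the test. Gstm3 had 131.9, 88.1 and 97.4 CPM in water livers and 93.2, 209.0 and 234.6 CPM in NMN livers (log2 fold change 0.76, SE 0.32, adjusted p = 0.195, edgeR). Gstm4 had 64.5, 57.1 and 76.6 CPM in water livers and 65.2, 143.6 and 140.3 CPM in NMN livers (0.82, SE 0.27, adjusted p = 0.107, edgeR). In both genes NMN replicate 1 lay within the range of the water livers, and the same library had the lowest NMN value of Gstm1. It also had the highest mitochondrial share of these livers (9.24%, against 7.16% and 7.04% in the other NMN livers) and 21.3 CPM of the kidney gene Kap, against 0.718 and 0.789 CPM, and the part of either was not tested. Without that library Gstm3 (adjusted p = 0.00831, edgeR) and Gstm4 (adjusted p = 0.00378) passed the test. The library was singled out by its values of these genes, so these calls are no support for a change. Across all fits with 1 library left out, the adjusted p reached 0.454 for Gstm3 and 0.288 for Gstm4.

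Gsta3, Gsta4, Gstp1 and Gstt1 overlapped between NMN and water livers of the higher schedule. Their log2 fold changes ran from -0.15 (SE 0.18) for Gstt1 to 0.20 (SE 0.18) for Gstp1, with adjusted p from 0.542 to 0.839 (edgeR). The 95% interval of Gsta3, an abundant alpha-class gene, was -0.24 to 0.49.

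At 1340 mg/kg/d none of the 8 liver genes tested beside Gsta2 passed the test of edgeR, where 0.0161% of all 12449 genes passed. At an unadjusted p under 0.05 there was 1 (Gstm4), where 6.86% of all genes had one, and with DESeq2 there were 0. Gstm4 had 47.3, 41.0, 37.0 and 43.2 CPM in water livers and 76.1, 72.8, 68.1 and 30.8 CPM in NMN livers (log2 fold change 0.56, SE 0.24, adjusted p = 0.690, edgeR). The 3 high NMN libraries lay above every water library and replicate 4 below every one. Gstm2 had 76.7, 63.6, 69.9 and 50.7 CPM in water livers and 72.9, 42.7, 41.5 and 22.3 CPM in NMN livers (-0.54, SE 0.30, adjusted p = 0.802). NMN replicate 4 had the lowest value of its group for all 9 genes tested there, Gsta2 included.

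That library stood apart in other respects: 12.8% of its listed reads were in no gene and 5.10% were ambiguous, against at most 7.44% and 3.59% in the other livers of the schedule. Without it, Gsta2 had a log2 fold change of 0.98 and Gstm2 of -0.32. Gstm4 then had 0.78 (adjusted p = 0.0503, edgeR), and still none of the other genes passed. Without NMN replicate 2 Gsta2 had 0.56, and without NMN replicate 1 Gstm2 had -0.87. Its part in these values was not tested otherwise.

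An interaction term over the 14 liver libraries compared the response of the schedules. None of the 9 genes passed, where 0.0746% of all genes did (edgeR, with 1 at an unadjusted p under 0.05, against 8.6% of all genes, and 0 with DESeq2). Gstm2, the gene with that unadjusted p, fell by 0.97 more on the log2 scale in the higher schedule (SE 0.38, adjusted p = 0.471). For Gstm1 the difference was 0.64 (SE 0.32, 95% interval -0.03 to 1.31).

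**Figure D3:**
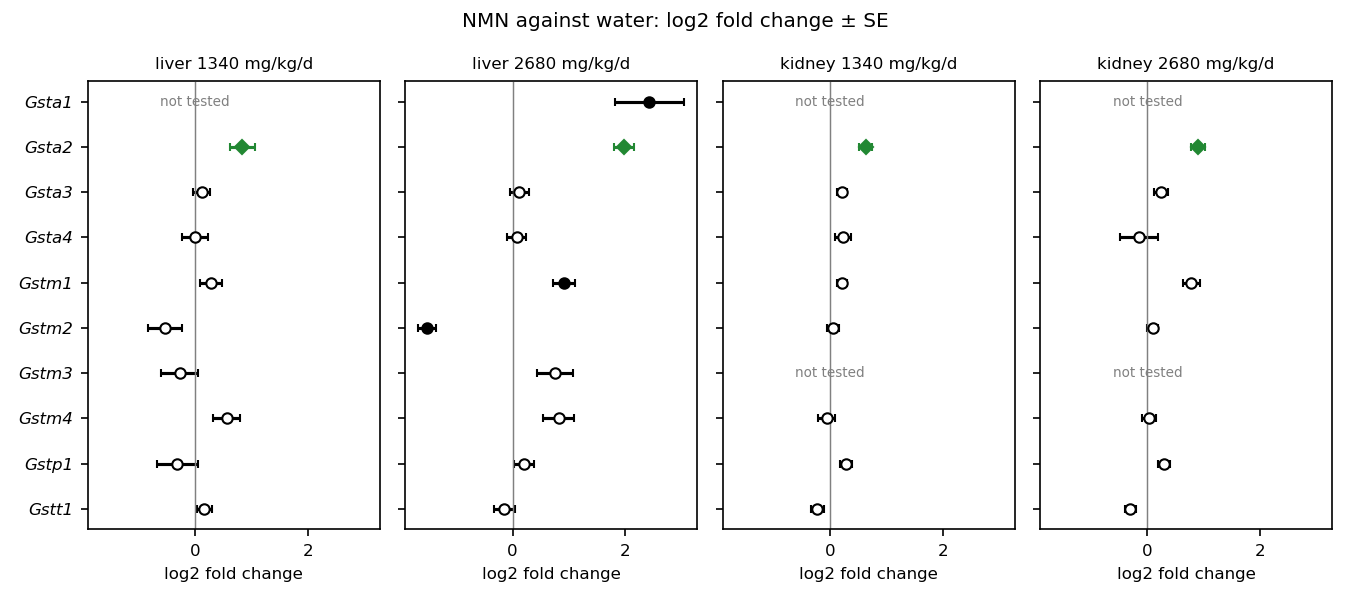
Log2 fold change of NMN against water with its SE (bars) for the 10 genes in the 4 comparisons. Filled circles passed the test at an adjusted p under 0.05, open circles did not, and green diamonds are Gsta2, which was not tested. The only filled circles are Gsta1, Gstm1 and Gstm2 in liver at 2680 mg/kg/d. Gsta1 passed the count filter there only through the NMN group.

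In kidney none of the 7 genes tested beside Gsta2 passed edgeR's test in either schedule. Of all genes 0.12% passed in the lower and 0.4% in the higher schedule. At an unadjusted p under 0.05 there were 3 of 7 in each, Gsta3, Gstm1 and Gstp1 in the lower schedule and Gstm1, Gstp1 and Gstt1 in the higher, and the shares of all genes were 8.94% and 11.1%. DESeq2 called 0 in the lower schedule and 1, Gstm1, in the higher, beside 0.964% and 1.63% of all genes. Gsta1 and Gstm3 were under the count filter.

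Gstm1 had 726.1, 535.0 and 613.6 CPM in water kidneys of the higher schedule and 867.0, 1058 and 1295 CPM in NMN kidneys. No NMN kidney overlapped a water kidney. The log2 fold change was 0.78 (SE 0.16, 95% interval 0.43 to 1.13) and the adjusted p 0.0764 (edgeR). With DESeq2 the adjusted p was 2.63e-05, and with all 14 kidney libraries in the fit 0.00715. Leaving out each library in turn gave an adjusted p from 0.00573 (without NMN replicate 1) to 0.3005. In the lower schedule the water kidneys had 534.7, 521.5, 529.6 and 599.3 CPM and the NMN kidneys 692.1, 637.1, 625.1 and 583.3 CPM (0.22, SE 0.09, adjusted p = 0.484, edgeR). The difference between schedules was 0.56 (SE 0.17, adjusted p = 0.949, edgeR).

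Gstp1 had 38.2, 36.4 and 39.5 CPM in water kidneys and 42.4, 43.1 and 54.1 CPM in NMN kidneys of the higher schedule (log2 fold change 0.29, SE 0.10, adjusted p = 0.303, edgeR). Gstt1, the theta-class enzyme, had 133.6, 116.3 and 117.5 CPM in water kidneys and 94.6, 93.3 and 109.9 CPM in NMN kidneys (-0.30, SE 0.09, adjusted p = 0.219). Neither gene overlapped between the groups. Over all genes tested in that comparison, 8.47% had higher and 8.69% lower values without overlap, and of these genes 2 of 7 did so as higher and 1 of 7 as lower.

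Gsta3, Gsta4, Gstm2 and Gstm4 in kidney overlapped between the groups in the higher schedule, with log2 fold changes from -0.15 (SE 0.34) for Gsta4 to 0.24 (SE 0.13) for Gsta3. In the lower schedule Gsta3 had 88.2 to 95.7 CPM in water kidneys and 96.5 to 118 CPM in NMN kidneys (0.22, SE 0.09, adjusted p = 0.490, edgeR), the 1 of 7 genes whose groups did not overlap as higher, where 2.29% of all genes did so. None of 8 genes passed the test of the difference between schedules in kidney, where 0.00625% of all genes did (edgeR, with 1, Gstm1, at an unadjusted p under 0.05, against 4.62% of all genes, and 0 with DESeq2).

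Of the 9 genes tested, Gstm2 passed the test of a difference in response between the organs. In kidney of the higher schedule it had 56.1, 51.9 and 60.8 CPM in water libraries and 55.5, 57.3 and 67.5 CPM in NMN libraries. The liver response was lower than the kidney response by 1.63 on the log2 scale (difference -1.63, SE 0.18, adjusted p = 0.000572, edgeR interaction over 12 libraries). Of all genes, 2.65% passed. The fit took liver and kidney libraries as independent. In 9 alternative fits with edgeR or DESeq2, among them a block of equally numbered organs, the adjusted p of Gstm2 was at most 0.00359. At an unadjusted p under 0.05 there were 2 of 9, Gstm2 and Gstm4 (0.78, SE 0.33, adjusted p = 0.214, edgeR), beside 19.4% of all genes. The 9 include Gsta1 and Gstm3, which had at most 45 and 12 counts in any kidney library of that schedule. For Gstm1 the liver and kidney responses differed by 0.12 (SE 0.29, 95% interval -0.51 to 0.74), an interval too wide to call them alike. In the lower schedule none of 8 genes passed (edgeR, 0 at an unadjusted p under 0.05, and 0 with DESeq2), nor did any of the 15614 genes tested there (0%, with 5.79% at an unadjusted p under 0.05 and 29 genes with DESeq2).

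Across libraries of an organ, with the mean of each schedule subtracted, Gsta2 varied most closely with Gstm1 (Pearson's r 0.77) and Gstm4 (0.71) in liver, beside Gsta1 (0.89), and opposite to Gstm2 (-0.72). The value of Gsta1 rests on few counts of a gene whose sequence is 98.0% identical to Gsta2. These values cover 14 libraries, which share the contrast of NMN with water, and are a description. Within the groups the correlation in liver was 0.73 with Gsta1, 0.55 with Gstm4, 0.45 with Gstm1 and 0.32 with Gstm2. In kidney Gsta2 varied most closely with Gstm1 (0.88), Gstp1 (0.72) and Gsta3 (0.62), and with Gstt1 at -0.45. Within the groups these were 0.68, 0.34, 0.12 and, with the sign turned, 0.71 for Gstt1. Among other genes the closest in liver were Hnrnpa2b1 (0.96), Ccl25 and Yod1 (both 0.94), and in kidney Slc38a3 (0.91), Shisa4 and Ephb2 (both 0.90). Within the groups the correlation was 0.69 for Hnrnpa2b1 and 0.73 for Ccl25 and Yod1 in liver, and 0.36 for Slc38a3, 0.89 for Shisa4 and 0.63 for Ephb2 in kidney.

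Of 13 other glutathione transferase genes tested in liver of the higher schedule, 0 rose and 4 fell with edgeR, where 3.05% of all genes were called as higher and 4.03% as lower. Their median log2 fold change was -0.36, and 9 of the 13 were not called. At an unadjusted p under 0.05 there were 8 of 13, beside 24.6% of all genes. Gstm6 had 172.2, 183.3 and 187.4 CPM in water livers and 81.2, 78.8 and 76.0 CPM in NMN livers (-1.20, SE 0.13, adjusted p = 0.000887, edgeR). Gstp3, a pi-class gene, averaged 12.9 CPM in water and 2.48 CPM in NMN livers (-2.38, SE 0.26, adjusted p = 0.000966). Gstm7 averaged 104 and 66.9 CPM (-0.63, SE 0.13, adjusted p = 0.0204). Mgst1, the microsomal transferase, averaged 4303 and 2831 CPM (-0.60, SE 0.13, adjusted p = 0.0204). In the same livers DESeq2 called these 4 as lower and Gstp2, the near copy of Gstp1, as higher. Of all genes it called 5.6% as higher and 5.7% as lower. Within the mu class, Gstm1 rose while Gstm2, Gstm6 and Gstm7 fell. In the lower schedule none of 13 passed with edgeR, where 0.0161% of all genes did. There were 2 at an unadjusted p under 0.05, beside 6.86% of all genes. DESeq2 called 1, Gstp3, beside 0.548% of all genes. With edgeR Gstp3 was the nearest (-0.96, SE 0.21, adjusted p = 0.201), with Gstt3 (0.50, SE 0.19, adjusted p = 0.600) and Mgst3 (0.49, SE 0.24, adjusted p = 0.762) next.

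Genes around these enzymes were counted by lists, first in liver of the higher schedule, where 7.08% of all genes were called (3.05% as higher and 4.03% as lower). Of 16 transcription factors of Gst genes, 2 rose and 1 fell, with a median log2 fold change of 0.32. Nr1i3, which encodes CAR, had 48.9, 58.6 and 47.2 CPM in water livers and 116.2, 157.4 and 129.8 CPM in NMN livers (1.38, SE 0.16, adjusted p = 0.00141, edgeR). Maff, a small MAF partner of NRF2, rose (1.66, SE 0.32, adjusted p = 0.0138) and Cebpa fell (-0.59, SE 0.16, adjusted p = 0.0489).

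Of 18 NRF2 targets other than Gst genes, 2 rose and 0 fell, beside 3.05% and 4.03% of all genes. These were Ugdh, which makes UDP-glucuronate (1.51, SE 0.22, adjusted p = 0.00404), and the epoxide hydrolase Ephx1 (1.29, SE 0.24, adjusted p = 0.0152), with Pgd next (-0.77, SE 0.21, adjusted p = 0.0518; all edgeR). Of 13 targets of CAR, PXR and AHR, 1 rose and 3 fell. Cyp3a11 (-1.04, SE 0.14, adjusted p = 0.00317), Cyp2c29 (-1.21, SE 0.21, adjusted p = 0.0101) and Cyp2c55 (-1.30, SE 0.32, adjusted p = 0.0346) fell, and Por, the P450 reductase, rose (1.17, SE 0.28, adjusted p = 0.0446).

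Of 14 genes of the mercapturate pathway and conjugate export in the same livers, 2 rose and 2 fell, beside 3.05% and 4.03% of all genes. The export pumps Abcc3 (1.14, SE 0.24, adjusted p = 0.0245) and Abcc2 (0.82, SE 0.20, adjusted p = 0.0345) rose. Nat8, which acetylates cysteine conjugates (-1.30, SE 0.23, adjusted p = 0.0105), and Acy3, which removes the acetyl group (-0.92, SE 0.19, adjusted p = 0.0196; edgeR), fell. Of 17 genes of glutathione synthesis and recycling only Glrx, a glutaredoxin, passed (-1.17, SE 0.23, adjusted p = 0.0169), with Glo1 (-0.42, SE 0.13, adjusted p = 0.0769) and Cth (0.54, SE 0.18, adjusted p = 0.102) next. In these livers DESeq2 called 5 transcription factors as higher and 1 as lower, 3 and 1 NRF2 targets, and 1 and 3 targets of CAR, PXR and AHR. It called 3 and 3 mercapturate genes and 0 and 1 glutathione genes, where it called 5.6% of all genes as higher and 5.7% as lower. At an unadjusted p under 0.05 (edgeR) there were 8 of 16 transcription factors, 8 of 18 NRF2 targets and 7 of 13 targets of CAR, PXR and AHR. There were also 7 of 14 mercapturate genes and 6 of 17 glutathione genes, beside 24.6% of all genes.

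No gene of these 5 lists passed with edgeR in liver of the lower schedule. At an unadjusted p under 0.05 there were 6 of 16 transcription factors, 5 of 13 targets of CAR, PXR and AHR, 4 of 18 NRF2 targets, 4 of 15 mercapturate genes and 4 of 17 glutathione genes, beside 6.86% of all genes, and DESeq2 called Abcc3 and Hnf4a, beside 0.548% of all genes. Abcc3 (0.76, SE 0.14, adjusted p = 0.0801), Hnf4a (0.68, SE 0.13, adjusted p = 0.117) and Oplah (0.47, SE 0.12, adjusted p = 0.338; edgeR) had the smallest p of the mercapturate, transcription factor and glutathione lists.

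**Figure D4:**
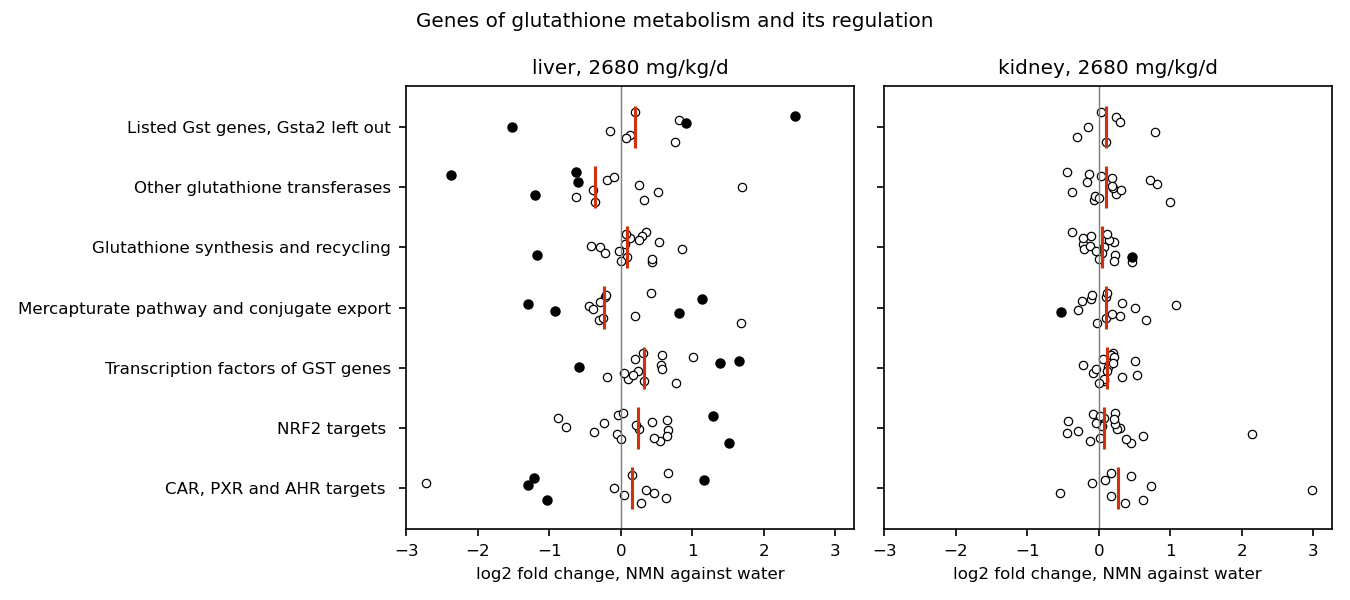
Log2 fold change of NMN against water at 2680 mg/kg/d in liver (left) and kidney (right) for each tested gene (points) of 7 lists, with the list median as a red bar. Filled points passed at an adjusted p under 0.05; in liver the other glutathione transferases with a filled point all lie below 0, and in kidney 2 genes of the lists are filled.

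In kidney of the higher schedule 2 genes of these lists passed with edgeR, beside 0.4% of all genes. Oplah, the 5-oxoprolinase of the glutathione cycle, rose (0.46, SE 0.09, adjusted p = 0.0452, edgeR), and Dpep1, the dipeptidase that cleaves cysteinyl-glycine conjugates, fell (-0.53, SE 0.10, adjusted p = 0.0410). Gpx1 (0.46, SE 0.09, adjusted p = 0.0544) and Nqo1 (0.61, SE 0.12, adjusted p = 0.0544), a quinone reductase controlled by NRF2, were just outside the threshold and were called by DESeq2, as were Abcc4 and Nat8f1 of the mercapturate list, beside 1.63% of all genes. Of 19 NRF2 targets, 16 other glutathione transferases and 16 transcription factors none passed with edgeR. At an unadjusted p under 0.05 there were 9, 4 and 2, beside 11.1% of all genes. There were also 6 of 17 glutathione genes, 6 of 15 mercapturate genes and 2 of 10 targets of CAR, PXR and AHR. DESeq2 called 5 NRF2 targets, 4 as higher and 1 as lower, and 0 of the other glutathione transferases and transcription factors. Nqo1, Mgst1 (0.23, SE 0.09, adjusted p = 0.330) and Ppara (0.54, SE 0.16, adjusted p = 0.231) were nearest. In the lower schedule Ugt1a1, a glucuronosyltransferase and target of CAR, PXR and AHR, was the 1 gene of these lists that passed with edgeR (3.37, SE 0.58, adjusted p = 0.0393), beside 0.12% of all genes. It had 2 to 8 counts in water and 19 to 96 in NMN kidneys and passed the count filter only through the NMN group, so this call is no support for a change. Dpep1 had a log2 fold change of -0.51 there (SE 0.11, adjusted p = 0.0881, edgeR). DESeq2 called Dpep1 and Abcc4 in addition, beside 0.964% of all genes.

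Summed levels of markers of the cells that carry these enzymes differed in the same libraries. In liver of the higher schedule the summed CPM of 8 hepatocyte markers, led by Alb, was 172039, 166539 and 160128 in water and 122667, 130839 and 135083 in NMN libraries. Of the 8, Ttr passed the test as lower, and 7 had a negative log2 fold change. Of 10 pericentral hepatocyte markers 2 fell (Oat and Glul), and of 10 periportal markers 1 rose (Hsd17b13) and 1 fell (Cyp2f2), beside 7.08% of all genes called there. DESeq2 called 4 pericentral markers as lower, 2 periportal markers as higher and 2 as lower, and Ttr, and at an unadjusted p under 0.05 there were 5 pericentral, 7 periportal and 4 hepatocyte markers. Of all genes DESeq2 called 11.3%, and 24.6% had an unadjusted p under 0.05. In kidney the summed CPM of 10 proximal tubule markers, led by Kap, was 35134 to 44420 in water and 27318 to 34453 in NMN libraries of the lower schedule, and 33985 to 36339 against 25248 to 31780 in the higher. None of the 10 passed with edgeR. At an unadjusted p under 0.05 there were 4 and 5, beside 8.94% and 11.1% of all genes. DESeq2 called 1 (Slc5a2) and 3 (Kap, Lrp2 and Slc5a2), all as lower, beside 0.964% and 1.63%. The part of these shifts in the values of the glutathione transferases was not tested.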

How the data were processed

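Poly(A) RNA of 28 libraries was sequenced, and the authors used STAR for mapping and HTSeq-count (intersection-strict mode, strand not used) for counts per gene. The build name given by the study could not be matched to an assembly. The deposited values are raw counts of 54446 genes per library, and the rows of reads in no gene, in several genes or at several places (18.6% to 29.3% of listed reads) were left out.

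NMN and water libraries were compared within each organ and schedule with edgeR 4.0.16 (R 4.3.3) by its quasi-likelihood test with filterByExpr and TMM scaling, and p-values were adjusted by the Benjamini-Hochberg method over all tested genes. A gene was called at an adjusted p under 0.05. Interaction terms tested differences between organs and between schedules. DESeq2 1.42.0, other scalings and filters, a replicate block, thinned counts and each library left out in turn were alternatives, and the fits were tested on simulated data. Symbols, exon lengths and transcripts came from GENCODE annotation of GRCm38, and 53229 gene identifiers matched it with their version.

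The members and lists were chosen with earlier results of these data known. Genes named beside the listed ones were taken from the called genes of each list and its 3 of smallest p, and not all of these are given. The sources do not say that a number marks the same mouse in both organs. Deviations of equally numbered liver and kidney libraries were correlated in water mice (lowest r 0.119 and 0.129) but not in every NMN pair (lowest r -0.00448 and -0.0101). Numbers were therefore taken to pair the organs of water mice only, where the paired fit is an alternative. The main fits took all libraries as independent. P-values measure the spread between these samples, and counts carry no molecular identifiers.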

Additional observations from a re-analysis of the deposited data

Results flagged for a closer look

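In groups of 4 libraries, 3 libraries stood apart from the others of their group in 1 of the 10 genes, of 40 gene and group combinations examined, where chance gives about 1 in 20. Gsta3 had 1868 CPM in replicate 1 of the water livers of the 1340 mg/kg/d schedule, against at most 1433 CPM in the other 3. Gstm1 had 1052 CPM in replicate 3 of the same group, where the nearest library had 1518 CPM. Gstm1 had 599 CPM in replicate 4 of the water kidneys of that schedule, where the nearest had 535 CPM.

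Between the organs of the 2680 mg/kg/d schedule, edgeR's interaction test called 1 of 9 listed genes and 3 of 17 other glutathione transferase genes, where 2.65% of all genes were called. The log2 difference of the liver from the kidney response was -1.63 for Gstm2, -0.85 for Mgst1 and -0.65 for Gstm7. The third of the other genes, Gstp3 (fitted difference -4.04), had 0 to 15 counts in any kidney library and passed the count filter only through liver, so its call is no support for a difference.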

How the results depend on the processing

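The direction of Gsta2 under NMN held in all 4 comparisons under every alternative run. Gsta2 was chosen by these differences in the same libraries, so this describes the fits and is no support for a change. The count of other listed genes called in liver at 2680 mg/kg/d, with Gsta1 included, was 3. It became 4 with DESeq2, 5 with no filter and 1 at an adjusted p under 0.01 with a fold over 2. With each library left out it ranged from 1 to 4. Gsta1 passed the main count filter only through the NMN livers, so its part in these counts is no support for a change. In kidney at 2680 mg/kg/d it was 0 and became 1 (Gstm1) with DESeq2, with no filter and with all 14 libraries in one fit, with a range of 0 to 1 on leaving out a library. The kidney schedule interaction went from 0 to 1 (Gstm1) with no filter, and the organ interaction at 2680 mg/kg/d from 1 to 2 (Gstm4) with no filter, with a range of 1 to 2 on leaving out a library. The cause of these shifts was not tested.

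With the replicate number as a block the adjusted p of Gsta1 in liver at 2680 mg/kg/d was 0.0662, and the block changed no other call of a listed gene, also between the paired organs of water mice. The number was not taken to pair NMN with water libraries, since no label says so. The mean r of deviations was 0.0433 and 0.147 in liver and 0.0412 and 0.00519 in kidney, in the lower and higher schedule. Over all genes the block moved the calls from 2 to 16 and from 18 to 75 in liver and kidney at 1340 mg/kg/d from 61 to 92 in kidney at 2680 mg/kg/d and from 883 to 1153 in liver at 2680 mg/kg/d, where each of the 3 NMN libraries matched best with its own number (lowest r 0.0656), as a hint from the data. With DESeq2 the calls over all genes were 73 and 1451 in liver, against 2 and 883 with edgeR, and 157 and 237 in kidney, against 18 and 61, in the lower and higher schedule. With no filter they were 44, 1785, 269 and 514 in that order. Leaving out each library in turn gave 0 to 18 and 211 to 1308 calls in liver and 5 to 67 and 3 to 191 in kidney, with the lowest counts without water replicate 2 in liver of both schedules and without water replicates 4 and 3 in kidney.

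Signs near 0 turned in single settings. Gsta4 in liver at 1340 mg/kg/d was 0.0145 with thinned counts, Gsta3 in the liver schedule interaction was -0.0549 with upper quartile scaling, and Gstp1 in the kidney schedule interaction was -0.000543 with at least 10 counts in every library, -0.00661 with the replicate block and -0.0137 with thinned counts.

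Leaving out single libraries turned the sign of 25 log2 fold changes, each of them with an adjusted p of 0.542 or more in the full fit or, for Gsta2, without a test. For the organ interaction at 2680 mg/kg/d these were Gsta1 from -0.651 to 3.29, Gsta3 from -0.259 to 0.0417, Gsta4 from -0.119 to 0.468, Gstm1 from -0.0475 to 0.356 and Gstp1 from -0.344 to 0.0155. For the kidney schedule interaction these were Gsta1 from -2.42 to 1.56, Gsta3 from -0.0605 to 0.145, Gstm2 from -0.0457 to 0.132, Gstm4 from -0.00729 to 0.174, Gstp1 from -0.12 to 0.0695 and Gstt1 from -0.162 to 0.0151. For the organ interaction at 1340 mg/kg/d these were Gsta2 from -0.0906 to 0.352, Gsta3 from -0.187 to 0.0103, Gstm1 from -0.0623 to 0.233 and Gstm3 from -0.502 to 0.626. For the liver schedule interaction these were Gsta3 from -0.105 to 0.179 and Gsta4 from -0.113 to 0.264. For kidney at 2680 mg/kg/d these were Gsta4 from -0.41 to 0.173 and Gstm4 from -0.0609 to 0.117. For liver at 1340 mg/kg/d these were Gsta4 from -0.128 to 0.196. For liver at 2680 mg/kg/d these were Gsta4 from -0.0459 to 0.257, Gstp1 from -0.00714 to 0.29 and Gstt1 from -0.264 to 0.0282. For kidney at 1340 mg/kg/d these were Gstm2 from -0.0412 to 0.104 and Gstm4 from -0.124 to 0.0272.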
